A study of Sus scrofa with 85 samples.

Results

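The infarcted (apical) wall of the left ventricle was compared between 14 days after myocardial infarction and baseline in RNA-seq counts of micro-endomyocardial biopsies (micro-EMB), which are tissue samples far smaller than a conventional catheter biopsy. Libraries labelled apical of Day 14 and of baseline were used when they had at least 1000000 counts and between 7% and 60% of these in their 10 most counted genes. These limits kept 7 of 9 day 14 libraries and 4 of 6 baseline libraries, 11 of the 85 libraries of the series. The libraries came from 3 female mixed breed Yorkshire-Swedish farm pigs, in which a balloon closed the distal left anterior descending artery for 1 h before reperfusion. Baseline biopsies were taken before the occlusion in the same animals. Per the study's table of sample numbers, they were not specifically aimed at a region, although the labels call them apical. Swine 5385 gave 2 baseline and 3 day 14 libraries, swine 1640 gave 1 and 2, and swine 1644 gave 1 and 2. Libraries of the same animal are repeated samples, so the spread between libraries is partly a spread between biopsies and not between animals. The age of the animals is not given in the labels.

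A myocardial infarct heals by removal of dead muscle, growth of granulation tissue with new vessels, and deposition of extracellular matrix (ECM) by activated fibroblasts, which cross-link collagen into a scar. Transforming growth factor beta (TGF-beta) drives much of this matrix production, and the capillary endothelium supplies the surviving muscle. At 2 weeks after occlusion, healing pig myocardium is usually between the inflammatory phase and the mature scar.

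Total counts of the 11 libraries ranged from 5990513 to 16659110, and the 10 most counted genes held 13.8% to 38.0% of them. Of the 4 libraries left out, 3 had an even count profile with 2.50% to 3.09% in the 10 most counted genes, and 1 baseline library had 74.5%. No 2 of the 11 libraries agreed beyond a Spearman correlation of 0.976 across genes.

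Heart muscle transcripts marked 9 of the 11 libraries as myocardium and were scarce in the other 2. The summed level of 14 sarcomere genes, which build the contractile filaments, was 42700 to 82500 CPM (counts scaled to a library total of 1000000) in 9 libraries. It was 316 CPM in the baseline library of swine 1644 and 1150 CPM in replicate 5 of day 14, also from swine 1644. In these 2 libraries the ventricular light chain MYL2 had a log2 CPM of 1.05 and 3.89, against 9.87 to 12.18 in the others. Cardiac troponin C (TNNC1) had -0.37 and 3.04, against 9.42 to 11.18. The summed level of 12 fibroblast genes was 41300 CPM and 65600 CPM in these 2 libraries. The other libraries had 3010 to 13000 CPM, except replicate 8 of day 14 from swine 1644 with 32400 CPM. The baseline library of swine 1644 also held 5650 CPM of 6 adipocyte genes, against 7.42 to 440 CPM in the other 10. The study did not keep these 2 libraries, called muscle-poor below, and results are also given without them, as 3 baseline against 6 day 14 libraries. In whole tissue, fewer cells of a type and less RNA per cell cannot be told apart.

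**Figure D1:**
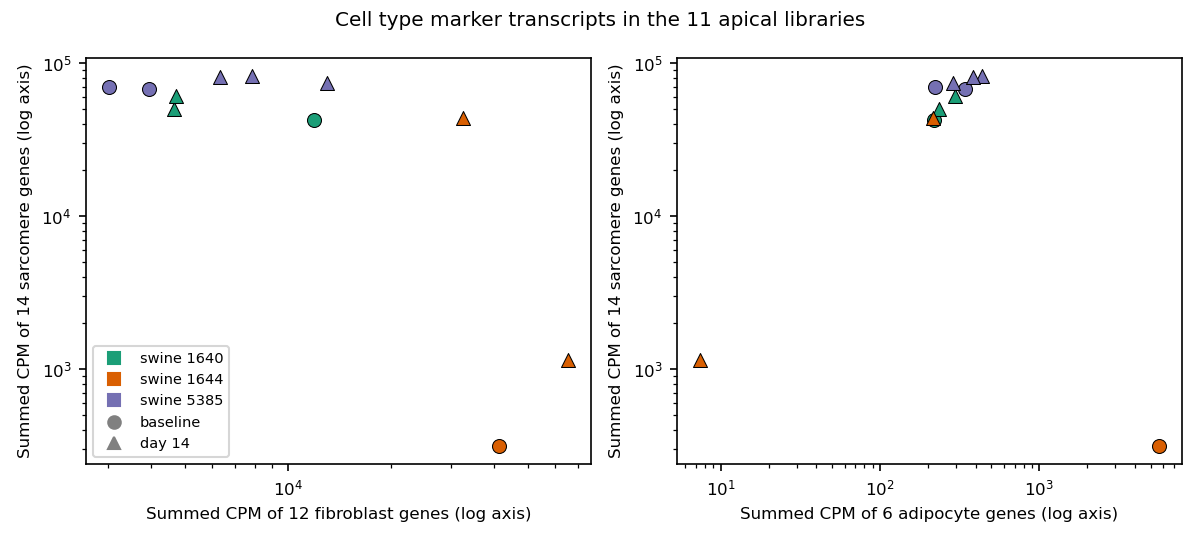
Summed CPM of sarcomere genes (vertical, log axis) against that of fibroblast genes (left) and adipocyte genes (right, log axes) in the 4 baseline (circles) and 7 day 14 (triangles) apical libraries, coloured by swine. The 2 libraries with 316 and 1150 CPM of sarcomere genes lie apart from the other 9.

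No gene passed the threshold at day 14. All 29 apical libraries of the 5 timepoints were fitted together with timepoint as the only term, and 17929 genes were tested with edgeR's quasi-likelihood test. The smallest adjusted p (Benjamini-Hochberg over all tested genes) was 0.824, so 0 genes (0%) reached an adjusted p of 0.05 or less. Before adjustment 477 genes lay below 0.05, of which 225 (1.25% of those tested) had a higher and 252 (1.41%) a lower mean at day 14. DESeq2 and limma-voom also called no gene, with 644 and 329 genes below 0.05 before adjustment. Without the 2 muscle-poor libraries edgeR again called none, with a smallest adjusted p of 1, and 163 genes lay below 0.05 before adjustment, 0.4% of genes higher and 0.518% lower. That fit still held the libraries of the other timepoints. Each of 0–1 h, 1–3 h and day 2 had a library in it with less than 1150 CPM of sarcomere genes. These libraries enter the SE and p-values given without the 2 muscle-poor libraries, and their effect on them was not tested. The median log2 fold change over all genes was 0.07, and 57.1% of genes had a higher mean at day 14. Every day 14 library was above every baseline library for 35 genes (0.195%) and below for 59 genes (0.329%). Genes are therefore described below by their values, and none of the differences named passed the adjusted threshold. The log2 fold changes are day 14 minus baseline from edgeR with the standard error (SE), and their adjusted p was 1 for each gene named except SPOCK2.

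SPOCK2, which encodes the secreted proteoglycan testican-2, had the smallest p of all genes and was lower at day 14. The gene lies on chromosome 14 of Sscrofa11.1 at 74938164 to 74968126. Its log2 CPM at baseline was 6.23 in swine 1640, 5.43 in swine 1644, and 5.11 and 5.25 in swine 5385. At day 14 it was 3.84 and 4.29 in swine 1640, 3.07 and 2.92 in swine 1644, and 4.26, 4.31 and 4.18 in swine 5385. The groups did not overlap, and the mean was lower at day 14 within each of the 3 animals, with differences of -2.16 in swine 1640, -2.43 in swine 1644 and -0.93 in swine 5385. The log2 fold change was -1.65 ± 0.36 (SE; edgeR unadjusted p = 7.08e-05, adjusted p = 0.824). In the 9 libraries left without the muscle-poor 2 it was -1.61 ± 0.39 (edgeR unadjusted p = 0.000291, adjusted p = 1).

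SPRY4, an inhibitor of receptor tyrosine kinase signalling, and EHD2, an ATPase at the necks of caveolae, were also lower in every day 14 library. The log2 CPM of SPRY4 at baseline was 5.50 in swine 1640, 5.03 in swine 1644, and 5.32 and 5.34 in swine 5385. After 14 days it was 4.85 and 4.17 in swine 1640, 3.78 and 2.60 in swine 1644, and 3.90, 4.14 and 4.07 in swine 5385. The highest day 14 value, from swine 1640, stayed below the lowest baseline library, from swine 1644.
The log2 fold change of SPRY4 was -1.27 ± 0.39 (edgeR unadjusted p = 0.00285), and -1.33 ± 0.43 without the 2 muscle-poor libraries. For EHD2 the mean log2 CPM was 7.59 ± 0.48 in the 4 baseline libraries and 6.66 ± 0.26 in the 7 day 14 libraries (SD). Its log2 fold change was -0.98 ± 0.29 (edgeR unadjusted p = 0.00205). Both genes were also lower in the lateral (non-infarcted) libraries of day 14 against the same baseline libraries, SPRY4 by -0.93 and EHD2 by -0.74. Apical minus lateral at day 14 was -0.33 for SPRY4 and -0.24 for EHD2. In limma-voom with library quality weights and the swine as replicate block, a fit chosen after the data were seen, SPOCK2 and SPRY4 were the 2 genes with an adjusted p of 0.05 or less.

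A further 9 genes were named for lying lower in every day 14 library. GPIHBP1, which holds lipoprotein lipase on the capillary wall, had a log2 CPM of 3.26 to 4.75 at baseline and 0.85 to 3.07 at day 14. Its log2 fold change was -1.85 ± 0.64. ECE1, the endothelin-converting enzyme, had 7.42 to 7.93 at baseline and 5.87 to 7.35 at day 14, with a log2 fold change of -0.75 ± 0.30. PPP1R16B, a regulatory subunit of protein phosphatase 1 that is abundant in endothelium, had 6.87 to 7.63 at baseline and 3.94 to 6.77 at day 14. Its 2 lowest values, 3.94 and 4.16, were the day 14 libraries of swine 1644. The remaining 6 genes were IMPA2 (an inositol monophosphatase), CNIH3 (a cornichon protein of AMPA receptors), N4BP3, KIFC3 (a minus-end directed kinesin), RFLNB (a filamin-binding protein) and PLEKHF1, with log2 fold changes from -0.71 for CNIH3 to -2.13 for IMPA2. IMPA2 had 8.16 log2 CPM in the baseline library of swine 1644 and at most 5.28 in the other libraries, and its log2 fold change was -0.62 without the 2 muscle-poor libraries. For PLEKHF1 it was -0.28 without them. Some of these genes were also lower than baseline at the other apical timepoints and in the lateral libraries of day 14. At 0–1 h, 1–3 h and day 2 GPIHBP1 had -1.52, -1.62 and -0.95, IMPA2 -1.72, -1.70 and -2.46, and PLEKHF1 -1.22, -1.36 and -1.18. Their lateral values were -1.26, -1.61 and -0.52. CNIH3 had -0.11, 0.01 and -0.77 and a lateral value of 0.10. At day 2 ECE1 had 0.05 and N4BP3 0.09.

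The endothelium list was lower throughout. All 9 tested endothelial marker genes had a lower mean at day 14, with a median log2 fold change of -0.96 against 0.07 over all genes and a range of -1.51 to -0.34. An unadjusted p under 0.05 was reached by 2 of the 9, CLDN5 and PECAM1, against 1.41% of all genes with lower means. All 9 means were lower within each of the 3 animals, which held for 1988 of the 17929 tested genes. The median difference within an animal was -0.44 in swine 1640, -2.02 in swine 1644 and -0.66 in swine 5385. The summed level of the 9 genes was 989 to 1470 CPM in the 4 baseline libraries and at most 905 CPM in the 7 day 14 libraries. These sums, which abundant members weigh most, did not overlap between the groups. The median of the 9 genes in each library, relative to the baseline mean, did overlap. It was -0.43 in the baseline library of swine 1644 and -0.34 in replicate 1 of day 14. The lowest sums were those of replicates 5 and 8 of day 14 from swine 1644, the latter with 335 CPM. Both also had the highest levels of fibroblast genes among the day 14 libraries. The part of these fibroblast levels in the result was not tested. Without the 2 muscle-poor libraries all 9 means stayed lower, with a median of -0.88 and none at an unadjusted p under 0.05.

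PECAM1, an adhesion molecule of endothelial junctions, lies on chromosome 12 at 14667643 to 14723296. It had log2 CPM of 8.25, 9.16, 8.55 and 8.33 at baseline. At day 14 it had 8.08 and 7.56 in swine 1640, 5.54 and 6.81 in swine 1644, and 8.16, 8.04 and 7.94 in swine 5385. The groups did not overlap, although libraries of swine 1640 and 5385 lay close to the lowest baseline value. The log2 fold change was -0.96 ± 0.45 (edgeR unadjusted p = 0.0430), and -0.58 without the 2 muscle-poor libraries. KDR, the main receptor of vascular endothelial growth factor, had 6.85 to 7.62 at baseline and 4.57 to 6.80 at day 14, again without overlap, and a log2 fold change of -1.07 ± 0.58. CLDN5, a claudin of endothelial tight junctions, had -1.51 ± 0.60 with overlapping groups, and -0.91 without the 2 muscle-poor libraries. CDH5, the cadherin of endothelial junctions, had -1.01 ± 0.53. The smallest p that the exact two-sided permutation test of mean log2 CPM over the 330 divisions of 11 libraries allows is 0.00606, which PECAM1, KDR and each other gene without overlap reached, and which became 1 after adjustment over all 17929 genes.

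Genes of angiogenesis were mostly lower as well. Of 26 tested genes 21 had a lower mean, with a median log2 fold change of -0.65, and 17 (65.4%) were lower within each of the 3 animals, as were 1988 of all 17929 tested genes. The list shares KDR, TEK and TIE1 with the endothelium list. The sphingosine-1-phosphate receptor S1PR1 (-0.94 ± 0.39) and the netrin receptor UNC5B (-0.99 ± 0.41) were the 2 members with an unadjusted p under 0.05, against 1.41% of all genes. The Notch ligand DLL4, which marks endothelial tip cells, had 3.92 to 4.39 log2 CPM at baseline and 0.30 to 3.81 at day 14, without overlap. NOTCH4, a Notch receptor of endothelium, had a log2 fold change of -1.08 ± 0.56. In the 9 other libraries 23 of 26 means were lower, with a median of -0.74, and 3 members had an unadjusted p under 0.05, against 0.518% of all genes. WT1, a transcription factor of the epicardium that endothelium also expresses, had 4.31 to 4.48 at baseline and 0.70 to 3.84 at day 14, and a log2 fold change of -1.24 ± 0.60. It belongs to the epicardium list, whose other tested member, TBX18, had 0.93.

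The lateral (non-infarcted) region at day 14 had lower endothelial means too. Against the same 4 baseline libraries, the median log2 fold change of the 9 genes was -0.49 in the 6 lateral libraries of day 14, with all 9 means lower, beside the -0.96 of the apical libraries. For angiogenesis it was -0.35, with 22 of 26 lower. Both differences share the baseline libraries. Compared directly, the apical libraries of day 14 were lower than the lateral ones by a median log2 fold change of -0.35 for the endothelium list (-0.21 without replicate 5), and none of its 9 genes reached an unadjusted p under 0.05. In the apical libraries of the earlier timepoints the median of the endothelium list against baseline was -0.45 at 0–1 h, -0.31 at 1–3 h and 0.32 at day 2.

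**Figure D2:**
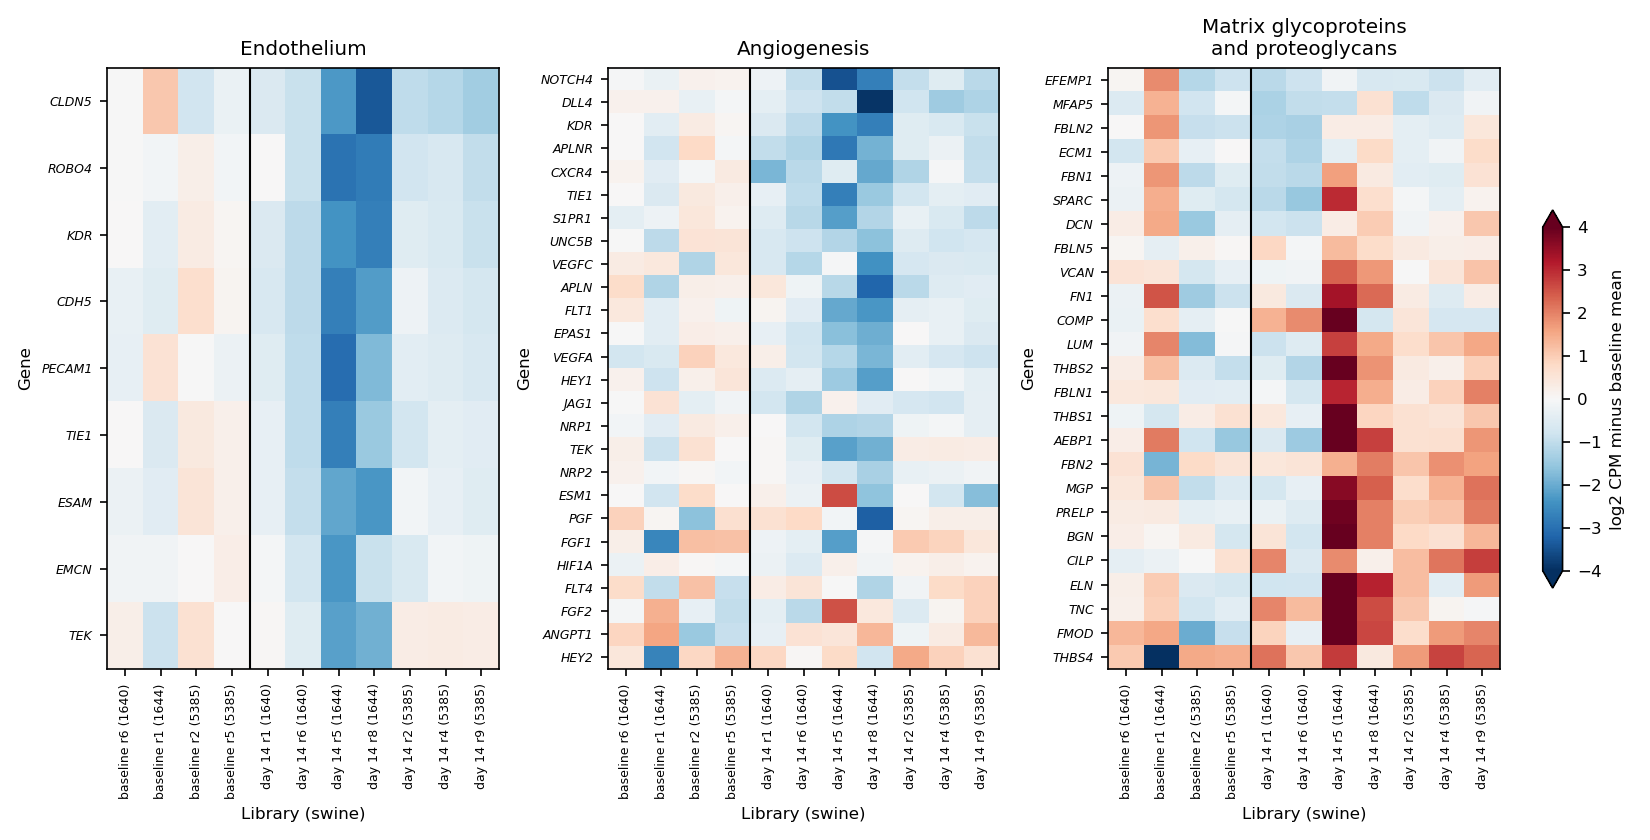
Log2 CPM minus the mean of the 4 baseline libraries (colour) for each gene (rows) of the endothelium, angiogenesis and matrix glycoprotein lists in the 4 baseline and 7 day 14 apical libraries (columns, with the swine; the line divides the groups; r is the replicate). Endothelial genes are lowest in replicates 5 and 8 of day 14, with medians of -2.40 and -2.23, and the same 2 libraries hold the highest medians of matrix genes, 2.97 and 1.46.

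Matrix genes had higher means at day 14, but with a wide spread between animals. Of 25 tested glycoproteins and proteoglycans of the ECM, 19 had a higher mean, against 57.1% of all genes, with a median log2 fold change of 1.13. An unadjusted p under 0.05 with a higher mean was reached by 11 of the 25, against 1.25% of all genes. Of 19 collagens 15 were higher, with a median of 0.71, and 4 reached that p. The median of the glycoprotein list within an animal was -0.71 in swine 1640, 1.57 in swine 1644 and 1.05 in swine 5385, so the direction in swine 1640 was opposite to that in the others. Without the 2 muscle-poor libraries 24 of 25 means were higher, with a median of 0.86, but 0 of 25 had an unadjusted p under 0.05. The collagens had a median of 0.65 and also 0 of 19, but their median was -0.04 without replicate 5 of day 14 alone. In single libraries of day 14 the glycoprotein list had a median of 2.97 and 1.46 log2 units above the baseline mean in swine 1644, 0.24 to 1.08 above it in swine 5385, and 0.27 and 0.59 below it in swine 1640 (-0.27 and -0.59).

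Elastin (ELN), the core protein of elastic fibres, showed this spread most clearly. The gene lies on chromosome 3 at 11214194 to 11245891. Its log2 CPM at baseline was 7.10 in swine 1640, 7.89 in swine 1644, and 6.28 and 6.17 in swine 5385. After 14 days it was 6.06 and 6.10 in swine 1640, 13.41 and 9.95 in swine 1644, and 8.09, 6.44 and 8.55 in swine 5385. Both day 14 libraries of swine 1640 were below every baseline library, and both of swine 1644 were above. The log2 fold change was 3.80 ± 1.46 (edgeR unadjusted p = 0.0142), and 1.67 ± 1.20 without the 2 muscle-poor libraries.

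Among small leucine-rich proteoglycans, which bind collagen fibrils, PRELP had a log2 fold change of 2.01 ± 0.72, biglycan (BGN) of 2.45 ± 0.92 and fibromodulin (FMOD) of 2.42 ± 1.07. These values were 1.27, 0.91 and 1.35 without the 2 muscle-poor libraries, and 1.19, 0.93 and 0.94 without replicate 5 of day 14 alone. Of the same family, lumican (LUM) had 0.72 and decorin (DCN) -0.10, both named after their values were seen. PRELP was 5.57 to 6.33 log2 CPM at baseline, 5.70 and 5.45 at day 14 in swine 1640, and 6.95 to 9.87 in the 5 other day 14 libraries. Tenascin C (TNC), a glycoprotein of healing tissue, was less tied to single animals. It had 2.65 to 4.32 log2 CPM at baseline and 3.34 to 8.18 at day 14, and its mean was higher within each of the 3 animals, with differences of 1.42 in swine 1640, 2.75 in swine 1644 and 0.95 in swine 5385. The log2 fold change of TNC was 2.53 ± 0.95, and 1.72 ± 0.90 without the 2 muscle-poor libraries. CILP, a cartilage matrix protein that cardiac fibroblasts secrete, was also higher within each animal, with a log2 fold change of 1.68 ± 0.75. In the lateral libraries of day 14 against the same baseline libraries, CILP was at 1.71 and TNC at 1.42. Apical minus lateral at day 14 was -0.05 for CILP. For TNC it was 1.08, and -0.07 without replicate 5 of day 14.

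The collagens with an unadjusted p under 0.05 were COL11A1 (2.42 ± 0.93), COL16A1 (2.34 ± 0.90), COL12A1 (2.02 ± 0.96) and COL8A1 (1.77 ± 0.71). In that order they were 1.10, 1.02, 1.21 and 0.57 without the 2 muscle-poor libraries, and 0.77, 0.58, 0.55 and 0.84 without replicate 5 of day 14 alone. The fibrillar collagens of mature scar were higher by less than their SE. For COL1A1 the mean log2 CPM was 11.51 ± 1.68 in the 4 baseline libraries and 11.86 ± 1.88 in the 7 day 14 libraries (SD), with a log2 fold change of 0.79 ± 1.15. COL3A1 had a log2 fold change of 0.70 ± 0.92, COL1A2 of 0.51 ± 1.04 and fibronectin (FN1) of 0.61 ± 0.97. Leaving out replicate 5 of day 14 alone turned these 4 values to -0.41, -0.03, -0.42 and -0.10. Without the 2 muscle-poor libraries they were 0.77 ± 1.15, 0.95 ± 0.92, 0.75 ± 1.04 and 1.47 ± 0.98 in the same order. LOXL1, a cross-linking enzyme of elastin, was the only one of 20 genes of matrix cross-linking and turnover with an unadjusted p under 0.05 (1.38 ± 0.64, list median 0.47). Without replicate 5 of day 14 alone LOXL1 was at 0.71 and the list median at -0.10.

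Of 12 fibroblast markers 9 had a higher mean, against 57.1% of all genes, with a median of 0.65. Within each of the 3 animals 0 of the 12 had a higher mean, against 14.9% of all genes. The median was 0.82 with 12 of 12 higher without the 2 muscle-poor libraries, and -0.04 without replicate 5 of day 14 alone. The transcription factor TCF21 (2.24 ± 0.86) and fibulin 1 (FBLN1, 1.43 ± 0.67) had an unadjusted p under 0.05, against 1.25% of all genes. TCF21 had a log2 CPM of -2.07, which is 0 counts, in the baseline library of swine 1644. TCF21 was at 1.07 without the 2 muscle-poor libraries. Of 11 markers of myofibroblasts and scar fibroblasts 10 were higher, against 57.1% of all genes, with a median of 1.13. In this list 3 members (27.3%) were higher within each of the 3 animals, against 14.9% of all genes. Several of its members, FMOD and CILP among them, also stand in other lists. The latent TGF-beta binding protein LTBP2, a member, had 2.84 ± 1.14, and 0.61 ± 0.92 without the 2 muscle-poor libraries. Its median was 0.61 without the 2 muscle-poor libraries, and -0.02 without replicate 5 of day 14 alone.

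In TGF-beta signalling, 17 of 25 genes had a higher mean, against 57.1% of all genes, with a list median of 0.28. Only 2 (8%) were higher within each of the 3 animals, against 14.9% of all genes. An unadjusted p under 0.05 was reached by 6 of the 25, all higher, against 1.25% of all genes. In the 9 other libraries 0 of 25 reached it, with a median of 0.09. CCN2, a matricellular protein that TGF-beta induces, had 3.09 ± 1.14 and a higher mean within each animal, but 1.45 ± 1.04 without the 2 muscle-poor libraries. The activin subunit gene INHBA had 3.08 ± 1.23, which rested on replicate 5 with 6.56 log2 CPM, and -0.01 without the 2 muscle-poor libraries. Receptors and SMAD genes of the pathway had values near 0, which range from -0.52 to 0.28 (TGFBR1, TGFBR2, TGFBR3, SMAD2, SMAD3, SMAD4, SMAD6 and SMAD7).

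Among Wnt and mechanical signalling genes the secreted Wnt antagonist SFRP1 had 2.83 ± 0.96 and retained an unadjusted p of 0.00671 by edgeR (adjusted p = 1) without the 2 muscle-poor libraries, with 2.49 ± 0.85. Its log2 CPM was 1.61 to 5.93 at baseline and 4.47 to 9.64 at day 14. FRZB, another secreted Wnt antagonist, was high only in the 3 day 14 libraries of swine 5385, with 6.63, 6.49 and 5.81 log2 CPM, against at most 3.38 in the other 8 libraries. DKK2, a further antagonist, was lower (-2.87 ± 1.06), but the baseline library of swine 1644 held 7.31 log2 CPM and the fold change was -0.26 without the 2 muscle-poor libraries. The list median was 0.02.

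**Figure D3:**
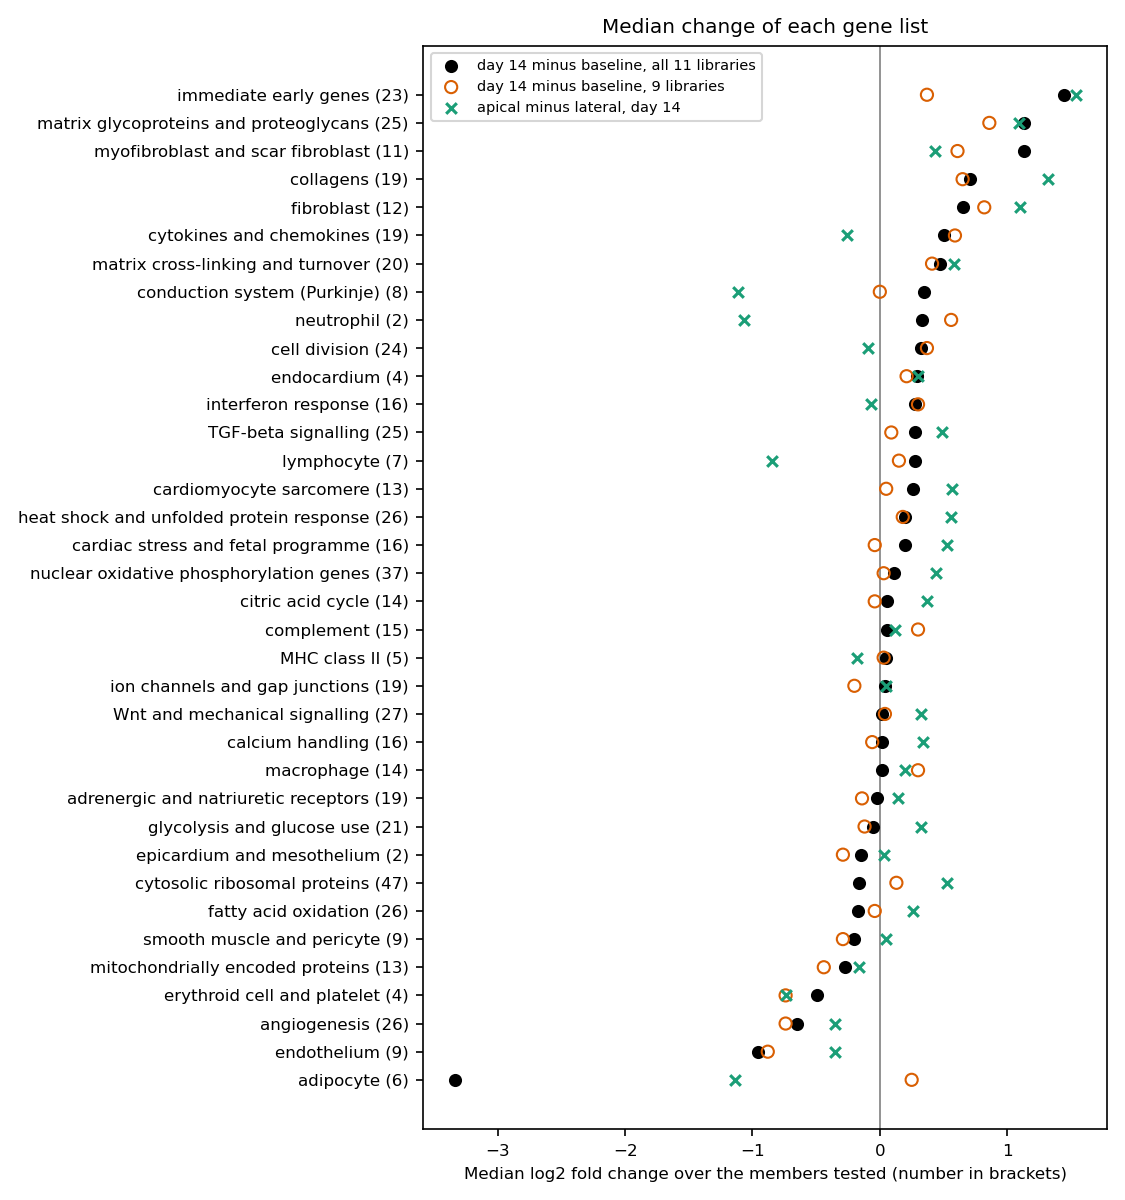
Median log2 fold change over the tested members of each of the 36 gene lists (rows) for day 14 minus baseline in all 11 libraries (black), the same in the 9 libraries left without the muscle-poor 2 (open orange), and apical minus lateral at day 14 (green crosses). The endothelium list has medians of -0.96 and -0.88 with and without these libraries, while the adipocyte list moves from -3.34 to 0.25.

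Adipocyte genes gave the lowest list median, -3.34 over 6 genes, and this rested on 1 library. PLIN1, the coat protein of fat droplets, had 9.18 log2 CPM in the baseline library of swine 1644, at most 1.18 in the other baseline libraries and -1.24 to 2.67 at day 14. Adiponectin (ADIPOQ) had 10.75 in that library and at most 4.06 elsewhere. CIDEC and FABP4 had the same library highest. UCP3, an uncoupling protein in the fatty acid oxidation list, had 6.67 in that library and at most 1.07 elsewhere. Without the 2 muscle-poor libraries the list median was 0.25, and the log2 fold changes of PLIN1, ADIPOQ and UCP3 turned to 0.34, 3.26 and 1.26. The complement gene C4A (-3.04 ± 1.09) also had its highest value in that library. NPR1, the receptor of atrial natriuretic peptide, had a log2 fold change of -1.45 ± 0.52, and -0.58 without the 2 muscle-poor libraries. ACE, the angiotensin-converting enzyme of endothelium, had -1.01 ± 0.41 and -0.94 ± 0.44.

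Muscle genes did not separate the groups. Of 13 tested sarcomere genes none had an unadjusted p under 0.05, and their log2 fold changes ranged from -0.06 to 0.59 with a median of 0.26. MYH6, the alpha myosin heavy chain, whose reads cannot be fully told from those of its close paralog MYH7, had 14.42 to 15.85 log2 CPM at baseline outside swine 1644 and 14.47 to 15.92 at day 14 outside replicate 5. TNNT2 had a log2 fold change of -0.02 ± 1.18, TPM1 of 0.16 ± 0.75 and MYOM1 of 0.59 ± 0.98. The SE of about 1 log2 unit means that moderate differences in muscle genes were not detectable here. The list medians were 0.20 for cardiac stress and fetal genes, with XIRP2 at 1.07 ± 1.02, 0.02 for calcium handling, 0.04 for ion channels and gap junctions, -0.02 for adrenergic and natriuretic receptors and 0.35 for conduction system genes. The background potassium channel KCNK3, at a low level, had -1.14 to 0.51 log2 CPM at baseline and 0.33 to 3.36 at day 14 (2.22 ± 0.85). The lateral libraries of day 14 were higher than baseline by 3.49 for KCNK3, and apical minus lateral was -1.22. Energy metabolism was also near 0, with 0.11 for 37 nuclear genes of oxidative phosphorylation, -0.27 for 13 mitochondrially encoded proteins, 0.06 for the citric acid cycle, -0.17 for fatty acid oxidation and -0.05 for glycolysis.

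Immediate early genes, the fast transcription factors of the stress response, were high in some day 14 libraries only. The list median was 1.45, with 22 of 23 means higher, against 57.1% of all genes. An unadjusted p under 0.05 was reached by 5 genes, against 1.25% of all genes. FOSB had 0.14 to 2.61 log2 CPM at baseline. After 14 days it had -0.95 and 1.95 in swine 1640, 8.61 and 2.94 in swine 1644, and -0.06, 3.53 and 7.89 in swine 5385. FOS was likewise 7.87 in replicate 5 and 7.80 in replicate 9, but 0.86 and 2.25 in swine 1640. These genes thus differed more between biopsies of the same animal and day than between the group means of 3.55 ± 0.49 (SD, n = 4) at baseline and 4.15 ± 2.97 (SD, n = 7) at day 14 for FOS. FOSL2 had a log2 fold change of 1.82 ± 0.82, and replicate 5 was highest for it and for FOSL1. Without the 2 muscle-poor libraries the list median was 0.37 and no gene of the 23 lay below 0.05 before adjustment.

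Of the immune lists, macrophage genes had a median of 0.02 over 14 genes, 7 higher and 7 lower. The scavenger receptor MSR1 was the only member with an unadjusted p under 0.05. It had 2.61, 1.72, 2.55 and 2.30 log2 CPM at baseline. At day 14 it had 3.41 and 3.82 in swine 1640, 4.03 and 3.87 in swine 1644, and 2.65, 3.02 and 2.74 in swine 5385. The groups did not overlap, and the log2 fold change was 1.16 ± 0.47 (edgeR unadjusted p = 0.0198). It was 0.88 without the 2 muscle-poor libraries. The lateral libraries of day 14 were higher than baseline by 1.01, and apical minus lateral was 0.15. The terminal complement component C7 had 2.19 ± 0.91, and 2.31 ± 1.07 without the 2 muscle-poor libraries, within a complement list whose median was 0.06. The fibrogenic cytokine IL11 had 3.74 ± 1.80 at very low level, with 2.84 log2 CPM at most. Its list of cytokines and chemokines had a median of 0.50. The medians were 0.33 for 2 neutrophil genes, 0.28 for 7 lymphocyte genes, 0.05 for MHC class II and 0.28 for the interferon response. In swine 5385 the antiviral gene MX1 had 6.54 to 6.79 at day 14 against 5.66 and 5.51 at baseline, while in swine 1640 it had 3.65 and 3.64 against 3.95. Cell division genes had a median of 0.32 with 19 of 24 higher, against 57.1% of all genes. The cytokinesis kinesin KIF23 was without overlap, 3.28 to 3.87 at baseline and 3.91 to 4.57 at day 14. Its log2 fold change was 0.50, and 0.46 in the lateral libraries of day 14 against the same baseline libraries. Endocardium, smooth muscle and pericyte, epicardium, heat shock and ribosomal protein lists had medians of 0.29, -0.20, -0.15, 0.20 and -0.16.

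Haemoglobin beta (HBB), whose reads may be shared with near-identical globin genes, was high in 1 animal at both times. It had 12.36 and 12.05 log2 CPM at baseline and 11.93, 12.11 and 11.80 at day 14 in swine 5385. In swine 1640 and 1644 it had 3.04 to 5.06 in all 6 libraries. The difference between the groups was -0.48 ± 1.96. The list of erythroid cells and platelets had a median of -0.49 over 4 genes.

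**Figure D4:**
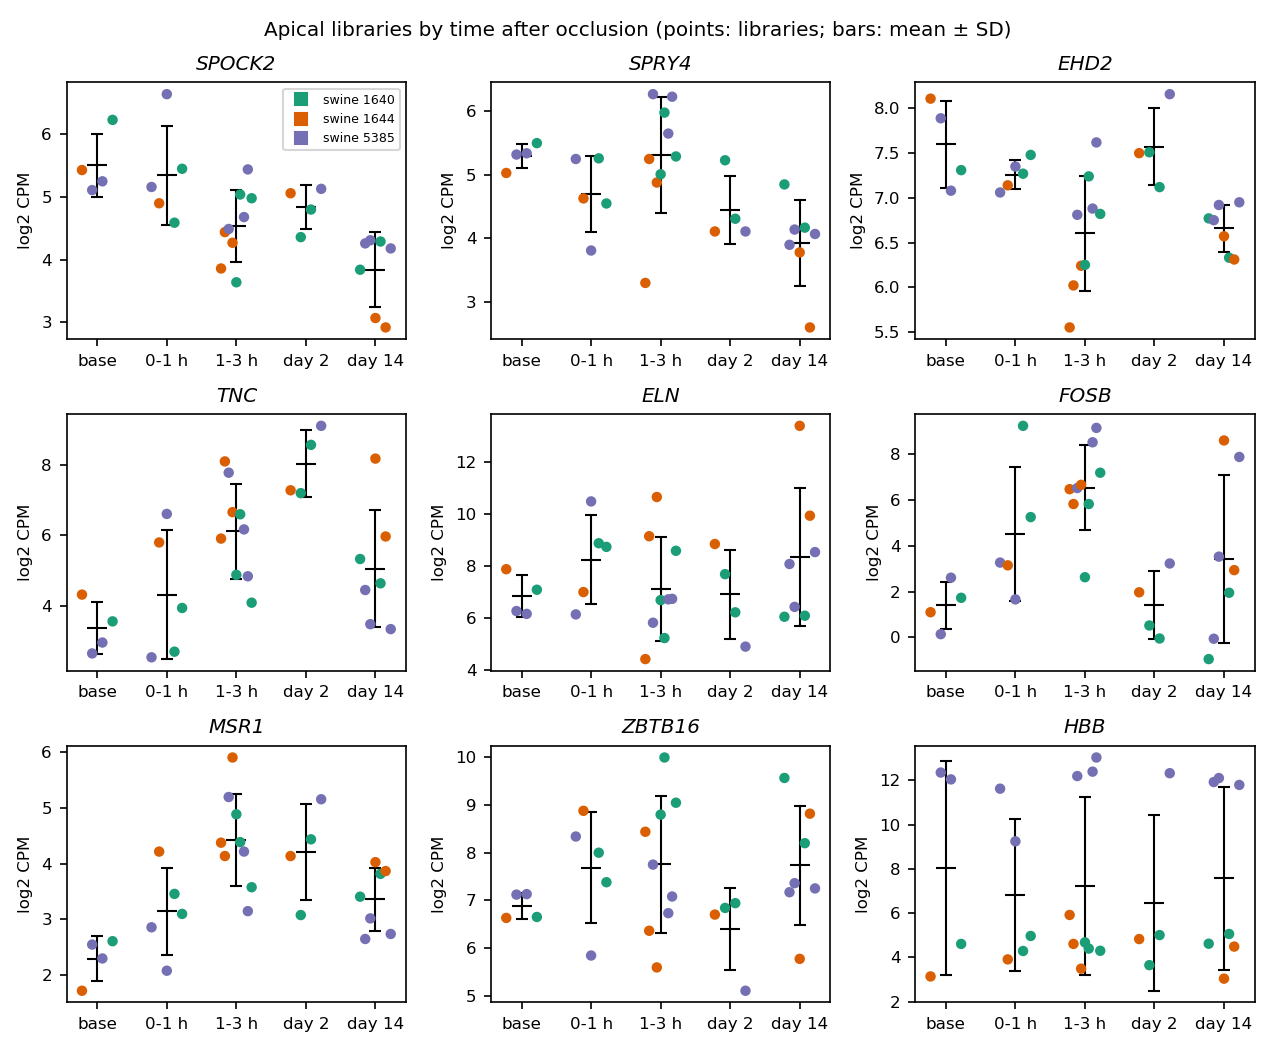
Log2 CPM of 9 genes in the 29 apical libraries at baseline, 0–1 h, 1–3 h, day 2 and day 14 (points, coloured by swine; bars are the mean ± SD of the libraries). SPOCK2, SPRY4 and EHD2 are lower in every day 14 library than in every baseline library, MSR1 is higher, and HBB separates swine 5385 from the others at every timepoint.

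The genes without overlap on the higher side were few. SAMD4A, a repressor of translation, had 7.63 to 9.19 log2 CPM at baseline and 9.30 to 11.15 at day 14, with a log2 fold change of 1.11 ± 0.50. GLIS3, a zinc finger transcription factor, had 6.93 to 7.15 and 7.23 to 8.96. The B cell adaptor gene BANK1 had 4.86 to 4.94 at baseline and 4.97 to 6.16 at day 14. NBAS (0.32 ± 0.18), a tether of Golgi to endoplasmic reticulum transport, the calpain CAPN3 (0.35 ± 0.28) and the zinc finger gene ZNF41 (0.25 ± 0.25) differed little. In the lateral libraries of day 14 against the same baseline libraries, BANK1 was at 0.86, CAPN3 at 0.76 and NBAS at 0.22. SAMD4A was at 0.19, GLIS3 at 0.28 and ZNF41 at 0.16. Apical minus lateral was -0.09 for BANK1, -0.41 for CAPN3, 0.10 for NBAS, 0.90 for SAMD4A, 0.66 for GLIS3 and 0.10 for ZNF41. Apart from TNC and CILP, described above, genes that the study discusses for other timepoints were near baseline by day 14 or spread widely. MYC had a log2 fold change of 1.48 ± 0.91 at day 14 against 4.42 at 1–3 h. It was 0.54 at day 14 without the 2 muscle-poor libraries and 0.07 without replicate 5 alone. ARC had 1.45 ± 1.87 against 7.31, at very low level, with at most 0.47 log2 CPM at baseline and 2.53 at day 14. PDK4, an inhibitor of pyruvate dehydrogenase, had -0.37 ± 1.16, and FAM111A had -0.08 ± 0.44. ZBTB16, a glucocorticoid-responsive transcription factor, had 6.63 to 7.13 at baseline. At day 14 it had 9.57 and 8.20 in swine 1640, 5.77 and 8.82 in swine 1644, and 7.17 to 7.36 in swine 5385, with a log2 fold change of 1.27 ± 0.70.

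Against the lateral region of the same animals and day, the apical libraries again had no gene with an adjusted p of 0.05 or less. In this fit of 45 libraries edgeR tested 18097 genes, the smallest adjusted p was 0.645, and 961 genes lay below 0.05 before adjustment, 2.93% higher and 2.38% lower in the apical region. Of the 25 ECM glycoproteins and proteoglycans 14 reached that p with higher means, of 19 collagens 10, of 23 immediate early genes 14 and of 47 ribosomal protein genes 19. Without replicate 5 of day 14 these counts were 1, 0, 4 and 26, with 2.03% of all genes higher and 1.61% lower. ELN had 6.04 to 13.36 log2 CPM in the apical and 5.66 to 8.67 in the lateral libraries (scaled together), a log2 fold change of 3.38 ± 1.05. PRELP had 1.78 ± 0.54, and TCF21 1.97 ± 0.65. Without replicate 5 these 3 values were 0.89 for ELN, 0.99 for PRELP and 1.29 for TCF21. SPOCK2 was lower in the apical than in the lateral libraries, with 2.95 to 4.51 against 3.69 to 5.67, a log2 fold change of -0.95 ± 0.35 (edgeR unadjusted p = 0.0102, adjusted p = 0.645). CNIH3 was the named gene with the smallest p in this comparison (-0.77 ± 0.21, edgeR unadjusted p = 0.000762, adjusted p = 0.645), and it was -0.73 without replicate 5. FOS had 3.77 ± 1.07 and 3.17 without replicate 5.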

How the data were processed

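RNA was extracted from micro-EMB with a modified RNAdvance Tissue kit and made into libraries with SMARTer Pico. Per the labels and methods, the authors mapped reads with STAR to Sscrofa11.1, assigned them to genes with featureCounts and deposited raw counts of 31907 Ensembl genes. The column names mark a featureCounts setting without strand, so genes that overlap on opposite strands cannot be told apart. Tool versions are not given in the sources used here.

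Groups came from the labels. A gene was tested when 20% or more of the fitted libraries reached a CPM of 1. edgeR 4.0.16 (R 4.3.3) was used with TMM and its quasi-likelihood test, with no term but timepoint, and libraries served as replicates. DESeq2 1.42.0 and limma 3.58.1 were alternatives. Values are log2 CPM with a prior count of 2, scaled in the 29 apical libraries. Symbols came from a name table that matched 15029 identifiers, and coordinates from RefSeq by symbol. The tests were tried on simulated counts.

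The swine number is the replicate block, since libraries of 1 number come from 1 animal. Deviations from timepoint means correlated at 0.11 on average within animals and -0.0513 between them.

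Named genes were up to 12 per direction without overlap, a mean log2 CPM of at least 3 and the smallest p, up to 4 per list by p with any member without overlap, the 3 most abundant members of 4 marker lists, and genes of the study's text. The members and lists were chosen with earlier results of these data known. Results on some genes that meet this rule are not reported here.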

Additional observations from a re-analysis of the deposited data

Results flagged for a closer look

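The highest or lowest library of a group stood apart by Dixon's ratio 35 times over 81 named genes in 2 groups each. Among independent groups chance flags about 1 in 20. The named genes were chosen in these data and share the same libraries, so that rate is no benchmark for the 35 flags. Of the 35 flags, 19 were replicate 5 of day 14 and 11 the baseline library of swine 1644. The values below are log2 CPM.

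In replicate 5 of day 14 the highest values were LTBP2 10.56, COL12A1 10.38, COL8A1 9.53, FOSL2 9.58, COL11A1 8.09, MYC 6.65, INHBA 6.56 and FOSL1 4.25. The lowest values in it were MYH6 9.41, TPM1 8.41, TNNT2 6.90, ECE1 5.87, MYOM1 4.36, MYL2 3.89, TNNC1 3.04, PLEKHF1 2.66, NPR1 2.53, CIDEC -1.28 and PDK4 -2.07, the last at 0 counts.

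In the baseline library of swine 1644 the highest values were ADIPOQ 10.75, FABP4 8.65, IMPA2 8.16, CIDEC 7.08 and PLEKHF1 5.61. The lowest were SAMD4A 7.63, MYH6 4.28, XIRP2 1.78, TNNT2 1.25, MYL2 1.05 and TNNC1 -0.37.

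The other 5 flags were lone values. In replicate 8 of day 14 (swine 1644) DLL4 was lowest with 0.30 and KIFC3 with 2.34. In replicate 1 of day 14 (swine 1640) SAMD4A was highest with 11.15. In the baseline library of swine 1640 CCN2 was highest with 6.00 and ZNF41 lowest with 3.76.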

How the results depend on the processing

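Under the alternatives named here edgeR, DESeq2 and limma called no gene at day 14 against baseline, with 2 exceptions. All sequenced libraries, including those outside the limits, gave 18 calls (817 genes below 0.05 before adjustment). limma-voom with quality weights and the swine as replicate block, chosen after the data were seen, gave 2 calls (2030 genes). The count of 477 genes below 0.05 before adjustment was 959 with no filter on low counts, 798 with quality weights, 163 without the muscle-poor libraries and 130 for these with the replicate block. Leaving out 1 library gave 270 (baseline replicate 1, swine 1644) to 826 (baseline replicate 6), and 310 without day 14 replicate 5. With the replicate block alone it was 395, and 453 for counts summed per swine, with 0 calls in both. Against the lateral region the count of 961 was 1819 with DESeq2, 1079 with the replicate block and 355 (without lateral replicate 2) to 2892 (without apical replicate 6), with 1459 and 457 without lateral replicates 1 and 3, and 0 calls. The cause was not tested.

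Log2 fold changes reversed as follows. Without the muscle-poor libraries they were INHBA -0.01, PLIN1 0.34, ADIPOQ 3.26, UCP3 1.26, MYH6 -0.05, TPM1 -0.05, PDK4 0.80 and FAM111A 0.02, and with the replicate block added INHBA -0.20, PLIN1 0.35, ADIPOQ 3.88, UCP3 1.45, PDK4 0.47 and FAM111A 0.04. All sequenced libraries gave BANK1 -0.38, CAPN3 -0.68, FOS -0.40, MX1 -0.76 and TNNT2 0.22. limma-voom gave TNNT2 1.67, with quality weights TNNT2 0.58, ADIPOQ 1.37, UCP3 0.74 and FAM111A 0.10, and with weights and replicate block ADIPOQ 0.72, UCP3 0.33, HBB 0.08 and TNNT2 1.09. The replicate block gave HBB 0.06 and TNNT2 0.29, and sums per swine HBB 0.23 and TNNT2 0.55. Leaving out 1 library gave PLIN1 -7.17 to 0.20, ADIPOQ -8.19 to 3.26, UCP3 -5.54 to 1.06, MYL2 -0.04 to 0.71, MYH6 -0.27 to 0.63, TPM1 -0.23 to 0.38, PDK4 -0.60 to 0.58, FAM111A -0.43 to 0.38, HBB -0.97 to 0.24, TNNT2 -0.45 to 0.51, COL1A1 -0.41 to 1.98, COL3A1 -0.03 to 1.69, COL1A2 -0.42 to 1.71 and FN1 -0.10 to 2.21.

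The libraries come from 3 animals, so the spread between animals is poorly known. The common biological coefficient of variation was 0.664.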
